A study of Mus musculus with 13 samples.

Results

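The T cell receptor alpha and delta segments are the V, D, J and C genes of a single locus on mouse chromosome 14 (GRCm38), which runs here from Trav1 at 52427928 to the end of Trac at 54223097. Members were the genes with a name beginning Trav, Traj, Trac, Trdv, Trdd, Trdj or Trdc and a biotype beginning TR_, which gave 46 of the 43629 genes in the deposited table. All 46 are V segments: 45 carry the biotype TR_V_gene and Trav20 carries TR_V_pseudogene. By name alone the table holds 178 segments. The other 132 carry another biotype in the table and are given here as companions: 68 V segments, 59 J alpha segments, 2 J delta segments, 2 D delta segments and Trac. Trdc, the delta constant gene, is not analysed here.

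The locus holds the parts of both the alpha and the delta chain of the T cell receptor, and the D delta, J delta and C delta genes lie between the V segments and the J alpha array. In developing thymocytes the RAG1 and RAG2 recombinase joins a V segment to a J segment and deletes or inverts the DNA between them, so a V alpha to J alpha join removes the delta genes from that allele. Alpha joining can repeat on an allele, and it is known to proceed from J alpha segments nearest the delta genes toward those nearest Trac, and toward V segments farther from the J array.

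Poly(A) RNA was sequenced from thymic cells of 13 mice in 3 groups. The WT group was thymus of 3 C57BL/6 mice, with libraries taken over from an earlier series. The Atm-/- group was 5 thymic lymphomas of 129S6/SvEv mice, which lack the ATM kinase that responds to DNA breaks. The Rag2c/c p53-/- group was 5 thymic lymphomas of mice on a mixed background of C57BL/6 and 129S6/SvEv, which carry a RAG2 without its C-terminal region and lack p53. Each library was a different mouse, ages were not given, and no sort for T cells was stated. Genotype, tumor, strain and source series go together between WT and either lymphoma group and cannot be told apart.

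The values are the authors' normalized counts, rounded to whole numbers and not scaled to gene length, so levels of different segments are compared only as read counts. Column totals ranged from 19788898 to 21591289. Raw counts were not used here, and the spacing of the low values gave an estimated 6.37 M to 38.84 M reads per library. The shallowest libraries were Rag2c/c p53-/- lymphoma 2 at 6.37 M and WT thymus 2 at 6.66 M, where 1 read is worth 3.38 and 3.24 units, so a 0 there is a coarser 0 than elsewhere. No binomial interval is given for shares of these normalized values. Below, values follow the order of libraries 1 to 3 in WT thymus and 1 to 5 in each lymphoma group.

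The tissue label was checked with markers of the alpha beta T lineage (Cd3e, Cd3g, Cd4, Cd8a, Cd2 and Lck). Their summed level was 80948, 123170 and 81497 in WT thymus, 45669, 91335, 67508, 59360 and 50565 in Atm-/- lymphomas, and 76054, 97540, 58810, 59905 and 60450 in Rag2c/c p53-/- lymphomas. T lineage RNA was thus abundant in each of the 13 libraries, and the ranges of the 3 groups overlapped. By group mean, Cd8a held the largest count of the list in WT thymus and Lck, the kinase at the receptor, in the lymphoma groups. The thymic epithelial gene Psmb11 was listed at 91, 36 and 122 in WT thymus, at 0 in all 5 Atm-/- lymphomas and at 0, 0, 0, 1 and 0 in Rag2c/c p53-/- lymphomas. Another gene of the thymic epithelial list, Epcam, stood at 283, 221 and 251 in WT thymus, at 60, 39, 64, 66 and 85 in Atm-/- lymphomas and at 22, 875, 540, 172 and 750 in Rag2c/c p53-/- lymphomas. Genes of that list thus did not move alike, since Psmb11 was at or near 0 in each lymphoma while Epcam exceeded the WT range in Rag2c/c p53-/- lymphomas 2, 3 and 5.

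V segments encode most of the variable region, which contacts the ligand. In WT thymus 41 of the 46 members stood at 10 or more in all 3 libraries, 2 in some and 3 in none. Their group means ran from 0.333 for Trav6d-6 to 198.0 for Trav14-2, with a median of 52.7. Mice of this group were much alike: the coefficient of variation of the 43 members with a mean of at least 10 was 5.26 to 60.8%, with a median of 21.5%. Trav14-2, which led WT thymus 1 and 3, was listed at 218, 175 and 201. Trav16, which led WT thymus 2, was listed at 191, 195 and 150. The leading member held only 6.16, 7.08 and 6.33% of the summed V counts (6.52 ± 0.487%, SD, n = 3). Counts were therefore spread over many V segments. The inverse Simpson number, which gives how many segments of equal count would yield the same concentration, was 31.2, 27.4 and 30.5 (29.7 ± 2.04, SD, n = 3).

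The same measures separated the lymphomas from WT thymus without overlap. The leading member held 54.1, 38.9, 24.7, 58.4 and 41.1% of the V counts in Atm-/- lymphomas (43.4 ± 13.3%, SD, n = 5). The Rag2c/c p53-/- lymphomas had 11.9, 17.5, 29.2, 18.0 and 38.0% (22.9 ± 10.5%, SD, n = 5). Both ranges lay above WT thymus and overlapped each other. The inverse Simpson number was 2.90, 4.35, 7.58, 2.72 and 4.26 in Atm-/- lymphomas (4.36 ± 1.95, SD, n = 5). It was 15.7, 9.39, 7.31, 9.71 and 5.45 in Rag2c/c p53-/- lymphomas (9.51 ± 3.87, SD, n = 5). Over the members, Rag2c/c p53-/- lymphoma 1 was the most even lymphoma, and Atm-/- lymphoma 4 the least even. Over the 114 V segments by name, Rag2c/c p53-/- lymphoma 1 was again the most even at 21.9. There Atm-/- lymphoma 1 was the least even at 3.72, with Atm-/- lymphoma 4 at 6.34. The number of members at 10 or more was 43, 41 and 43 in WT thymus, 5, 4, 9, 6 and 7 in Atm-/- lymphomas, and 37, 12, 15, 16 and 21 in Rag2c/c p53-/- lymphomas. These are scores over the members and were given no test.

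**Figure D1:**
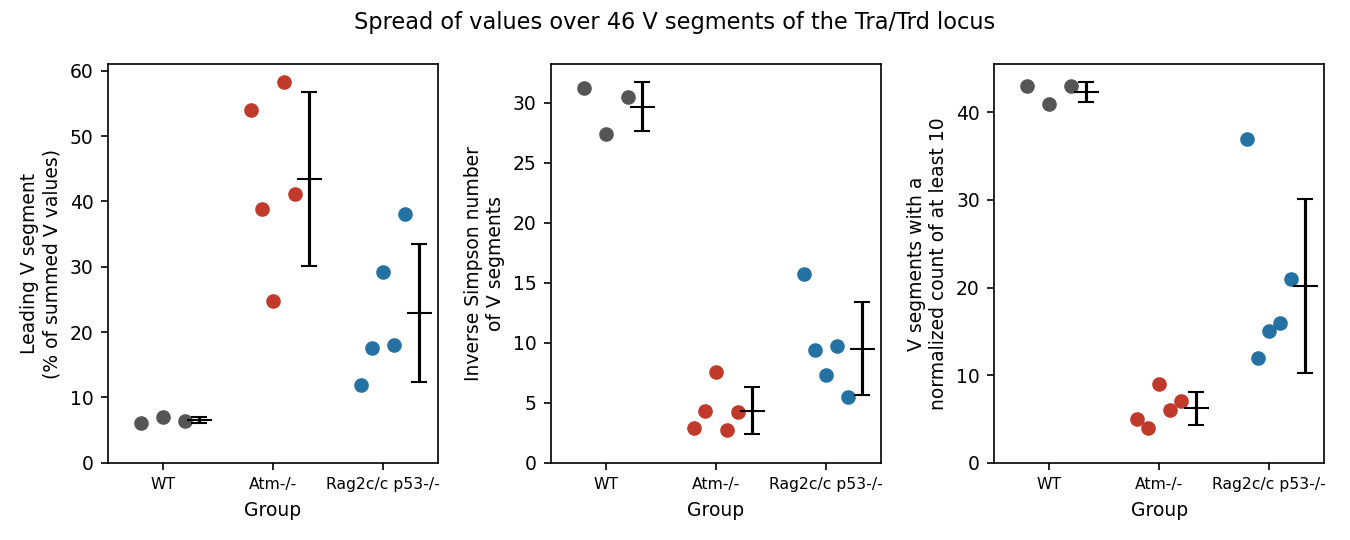
Share of the V total held by the leading V segment (%), inverse Simpson number, and number of V segments at 10 or more, over the 46 members, with 1 point per library and bars for the group mean ± SD. The leading share averaged 6.52% in WT thymus (n = 3), 43.4% in Atm-/- lymphomas (n = 5) and 22.9% in Rag2c/c p53-/- lymphomas (n = 5).

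The comparison of Atm-/- lymphomas with WT thymus asks how V segment RNA in these tumors differs from that of a normal thymus. Of the 46 members, 42 reached 10 in 3 or more libraries and were tested. Of these 42, 3 reached 10 in WT thymus alone. Others at 10 in fewer than 3 lymphomas also passed this filter only with WT thymus, the group where they are high. With limma, a gene was called at an adjusted p under 0.05 if its log2 fold change was 1 or more in size and either group averaged 10 or more. By this rule 35 members fell, against 17.0% of all 15872 genes tested. Called higher were 0 members, against 12.6% of all genes. At an unadjusted p under 0.05 the limma counts were 0 higher and 38 lower, against 3985 and 4401 of all 15872 genes. Where 10 was required in 5 libraries, 30 members were tested and 23 fell, against 2224 of all 14676 genes then tested. The share of members called lower was thus far beyond that among all genes, and all 42 fitted values lay on the lower side. The median log2 fold change of the tested members was -5.01, against -0.02 over all genes tested. With a pseudocount of 0.5 or 5 in place of 1 it was -5.68 or -3.21. In 41 of the 46 members each lymphoma lay below each WT thymus, beside the 17.0% of all genes called lower. Among tested genes this held for 39 of 42 members and for 27.9% of all genes. Fewer cells with a given join and less RNA per cell cannot be told apart in bulk RNA. The p-values weigh each difference against a spread between mice that was estimated over all 3 groups and moderated across genes.

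Among called members whose groups did not overlap, the lowest fold changes belonged to V alpha segments and to Trav6-7-dv9, a segment that can serve alpha and delta chains. Trav12-2 was listed at 143, 127 and 122 in WT thymus and at 0 in all 5 Atm-/- lymphomas (limma adjusted p = 0.000129). Trav8-1 was listed at 98, 49 and 74 in WT thymus and at 0 in all 5 Atm-/- lymphomas (limma adjusted p = 0.00252). Trav6-7-dv9 was listed at 82, 32 and 68 in WT thymus and at 0 in all 5 Atm-/- lymphomas (limma adjusted p = 0.00163). These V segments were thus absent from the counts of the whole Atm-/- group. Trav12-3 stood at 135, 117 and 119 in WT thymus and at 0, 9, 0, 0 and 0 in Atm-/- lymphomas (log2 fold change -6.30, SE 1.26, limma adjusted p = 0.00145). Trav16 stood at 191, 195 and 150 in WT thymus and at 1, 0, 26, 0 and 1 in Atm-/- lymphomas (log2 fold change -6.13, SE 1.49, limma adjusted p = 0.00498). The highest Atm-/- values of these segments were 9 in lymphoma 2 and 26 in lymphoma 3, both far below WT thymus. Trav12-2, Trav8-1 and Trav12-3 reached 10 in fewer than 3 lymphomas, so they passed the filter only with WT thymus, where they are high. Across the family, 16 of the 46 members were listed at 0 in all 5 Atm-/- lymphomas, 14 of them among the tested, and 32 reached 10 in none.

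The 7 tested members that were not called in Atm-/- lymphomas against WT thymus were Trav1, Trav3-3, Trav14-2, Trav15-2-dv6-2, Trav15d-1-dv6d-1, Trav17 and Trav18. Trav17 was the single member at 10 or more in every Atm-/- lymphoma: it stood at 161, 169 and 126 in WT thymus and at 104, 66, 102, 290 and 224 in the tumors. Its groups overlapped, with a log2 fold change of -0.15 (SE 1.47, limma adjusted p = 0.941). Trav1, the V segment farthest from the J array, stood at 83, 32 and 72 in WT thymus and at 293, 5, 70, 6 and 104 in Atm-/- lymphomas. The Atm-/- values of Trav1 lay on both sides of WT thymus (log2 fold change -0.58, SE 1.25, limma adjusted p = 0.725). The fold change of Trav1 was above 0 without Atm-/- lymphoma 2 (0.09) or 4 (0.04), and that of Trav17 without Atm-/- lymphoma 2 (0.10). Trav14-2 stood at 9, 43, 16, 51 and 24 in Atm-/- lymphomas, each below WT thymus, with a limma adjusted p of 0.0603. It was called without Rag2c/c p53-/- lymphoma 1 (0.0446) or 2 (0.00542), which share the estimate of spread. Trav3-3 stood at 172, 143 and 166 in WT thymus and at 9, 14, 28, 55 and 16 in Atm-/- lymphomas, with a limma adjusted p of 0.0594. It too was called without Rag2c/c p53-/- lymphoma 1, 2 or 3, at limma adjusted p-values of 0.0213 to 0.0443. Trav15-2-dv6-2 was high in Atm-/- lymphoma 2 alone, at 114, and was called without that library (log2 fold change -4.24, limma adjusted p = 0.0297).

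Rag2c/c p53-/- lymphomas were compared with the same 3 WT libraries, so the values of the 2 comparisons with WT thymus are not independent. Here 18 of the 42 tested members fell by limma, against 13.9% of all genes tested, and 0 rose, against 9.77% of all genes. At an unadjusted p under 0.05 the limma counts were 24 lower and 0 higher, against 3960 and 3549 of all 15872 genes. Where 10 was required in 5 libraries, 30 members were tested and 9 fell, against 1762 of all 14676 genes then tested. The count called lower also moved with the WT mice: it was 6 without WT thymus 1, 8 without WT thymus 2 and 7 without WT thymus 3. All genes called lower moved too, from 2199 of 15872 to 1347 of 15501, 1592 of 15487 and 1304 of 15494. Among the 46 members, 16 had each lymphoma below each WT thymus, beside the 13.9% of all genes called lower. All 16 were tested genes, or 38.1% of the tested members, against 24.2% of all genes tested. The median log2 fold change was -2.595, against -0.02 over all genes, and with a pseudocount of 0.5 or 5 it was -2.86 or -1.89. This group was more mixed than the Atm-/- group, since 27 members reached 10 in some of its lymphomas, 11 in 1, 2 in all 5 and 6 in none. The spread between its mice was also wide, with a coefficient of variation of 69.1 to 210% over the 30 members with a mean of at least 10.

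Trdv1, a V segment of delta chains, had the lowest fold change among called members without overlap in this comparison. It stood at 92, 81 and 81 in WT thymus and at 0, 0, 0, 0 and 13 in Rag2c/c p53-/- lymphomas (log2 fold change -5.66, SE 1.18, limma adjusted p = 0.00243). Only lymphoma 5 held Trdv1 counts. Trav12-2 stood at 14, 0, 58, 4 and 1 in Rag2c/c p53-/- lymphomas, against 122 to 143 in WT thymus (log2 fold change -4.42, SE 0.995, limma adjusted p = 0.00402). Trav6d-4 stood at 39, 52 and 31 in WT thymus and at 2, 3, 1, 0 and 2 in the lymphomas (log2 fold change -4.12, SE 0.544, limma adjusted p = 0.000127). Trav6d-4 reached 10 in WT thymus alone, so it entered the test only through the group where it is high and could not be tested without any 1 WT thymus. Trav6-5 stood at 103, 68 and 100 in WT thymus and at 9, 0, 10, 4 and 12 in the lymphomas (log2 fold change -3.93, SE 0.86, limma adjusted p = 0.00335). Trav13-4-dv7, another segment shared by alpha and delta chains, stood at 93, 78 and 71 in WT thymus and at 58, 0, 1, 12 and 1 in the lymphomas (log2 fold change -4.03, SE 1.13, limma adjusted p = 0.0134). Its highest lymphoma, number 1, came close to WT thymus, and without WT thymus 1 its limma adjusted p was 0.0542. Trdv1, Trav12-2, Trav6-5 and Trav13-4-dv7 reached 10 in fewer than 3 lymphomas of either group. They too passed the filter only with WT thymus, where they are high.

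Some V segments of single Rag2c/c p53-/- lymphomas stood above the whole WT range. Members at 10 or more and above the highest WT library numbered 20, 2, 6, 3 and 3 in Rag2c/c p53-/- lymphomas 1 to 5. In Atm-/- lymphomas 1 to 5 they numbered 1, 1, 0, 1 and 2. The share of all genes above the highest WT library was not counted, so these counts describe the members and do not set them apart from other genes. Rag2c/c p53-/- lymphoma 1 stood apart, and 10 of its members were at more than 2 times the WT maximum. Its summed V count was 5609, against 559, 1810, 815 and 1421 in lymphomas 2 to 5 of its group. In WT thymus the summed V count was 3540, 2756 and 3174, and in Atm-/- lymphomas it was 542, 293, 413, 497 and 545. Each Atm-/- lymphoma thus lay below each WT thymus and below each Rag2c/c p53-/- lymphoma in summed V counts.

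The comparison of the lymphoma groups with each other asks whether V segment RNA differs between Atm-/- and Rag2c/c p53-/- tumors. These groups also differ in strain, 129S6/SvEv against a mixed background, so genotype and strain cannot be told apart here either. Members called lower in Atm-/- than in Rag2c/c p53-/- lymphomas by limma numbered 9 of 42 tested, against 4.33% of all genes tested. Called higher were 0, against 3.51% of all genes. At an unadjusted p under 0.05 the limma counts were 24 lower and 1 higher, against 2187 and 1970 of all 15872 genes. The median log2 fold change was -2.21, against 0.02 over all genes, and with a pseudocount of 0.5 or 5 it was -2.50 or -1.19. Most of the tested members, 38 of 42, had a fitted value on the lower side in Atm-/- lymphomas. The count of 9 was 4 when only these groups were fitted, without WT thymus, where 458 of all 15872 genes were lower. It also rested on single mice: it was 4 without Atm-/- lymphoma 1, 4 without Atm-/- lymphoma 4, 5 without Atm-/- lymphoma 5 and 4 without Rag2c/c p53-/- lymphoma 1. All genes called lower then numbered 539, 557, 600 and 560, against 687 with every library. In 6 of the 46 members each Atm-/- lymphoma lay below each Rag2c/c p53-/- lymphoma, beside the 4.33% of all genes called lower. These 6 were 14.3% of the tested members, against 4.48% of all genes tested.

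Trav14d-1, Trav7-2 and Trav12d-1 were called with groups that did not overlap. Trav14d-1 stood at 0, 5, 2, 6 and 1 in Atm-/- and at 138, 14, 27, 29 and 17 in Rag2c/c p53-/- lymphomas (log2 fold change -3.39, SE 0.657, limma adjusted p = 0.00533). Trav7-2 was listed at 0 in all 5 Atm-/- lymphomas and at 24, 10, 3, 1 and 14 in Rag2c/c p53-/- lymphomas (limma adjusted p = 0.00642). Trav12d-1 was listed at 0 in all 5 Atm-/- lymphomas and at 60, 7, 3, 1 and 3 in Rag2c/c p53-/- lymphomas (limma adjusted p = 0.0281). The counts of Trav7-2 and Trav12d-1 were low even in the higher group. Trav12d-1 and Trav14d-1 have no stretch of 90 bases that is unique within the locus, so their low values and zeros are no measure of their RNA, and neither call can be assigned to that segment alone. Trav7-2 lost its call without Rag2c/c p53-/- lymphoma 1 (0.0143) or 5 (0.0181), where its mean went under 10. Trav12d-1 lost it without Rag2c/c p53-/- lymphoma 1 (0.0237, mean under 10) or Atm-/- lymphoma 1 (0.0561), 4 (0.0536) or 5 (0.0514).

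Another 6 members were called lower in Atm-/- lymphomas with groups that overlapped, and they are named here after their values were seen. Trav9-4 stood at 3, 2, 6, 2 and 2 in Atm-/- and at 408, 3, 189, 82 and 155 in Rag2c/c p53-/- lymphomas (log2 fold change -4.47, SE 0.939, limma adjusted p = 0.00833). Trav6-7-dv9 was listed at 0 in all 5 Atm-/- lymphomas and at 137, 0, 104, 19 and 16 in Rag2c/c p53-/- lymphomas (limma adjusted p = 0.0142). Both calls were kept whichever library was left out. Trav19 stood at 1, 0, 0, 0 and 4 in Atm-/- and at 604, 57, 0, 147 and 11 in Rag2c/c p53-/- lymphomas (log2 fold change -4.51, limma adjusted p = 0.039). The call of Trav19 ended without any of 10 of the 13 libraries (0.0551 to 0.0843) and was kept only without Atm-/- lymphoma 5 or Rag2c/c p53-/- lymphoma 3 or 5. Trav7-4 stood at 0, 2, 0, 2 and 0 in Atm-/- and at 666, 27, 16, 1 and 12 in Rag2c/c p53-/- lymphomas (log2 fold change -3.96, limma adjusted p = 0.0411). The call of Trav7-4 likewise ended without any of 10 libraries (0.0521 to 0.0872) and was kept without Atm-/- lymphoma 2 or Rag2c/c p53-/- lymphoma 1 or 4. Trav5-4 stood at 0, 0, 0, 2 and 4 in Atm-/- and at 138, 0, 216, 9 and 44 in Rag2c/c p53-/- lymphomas (log2 fold change -3.96, limma adjusted p = 0.0462). The call of Trav5-4 ended without any of 12 libraries (0.0501 to 0.11) and was kept without Rag2c/c p53-/- lymphoma 2. Trav7-3 stood at 0, 9, 0, 0 and 0 in Atm-/- and at 64, 17, 6, 4 and 9 in Rag2c/c p53-/- lymphomas (log2 fold change -3.06, limma adjusted p = 0.0234). The call of Trav7-3 ended without Atm-/- lymphoma 1, 4 or 5 or Rag2c/c p53-/- lymphoma 1 (0.0506 to 0.0565).

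The member with the highest count was not the same in every tumor, although Trav17 led several. In Atm-/- lymphomas the leaders were Trav1 at 293 in lymphoma 1, Trav15-2-dv6-2 at 114 in lymphoma 2, and Trav17 at 102, 290 and 224 in lymphomas 3 to 5. The Rag2c/c p53-/- lymphomas were led by Trav7-4 at 666, Trav21-dv12 at 98, Trav3-3 at 529, Trav19 at 147 and Trav17 at 540. The 5 leaders of the Rag2c/c p53-/- group were 5 different segments, whereas Trav17 led 3 of the 5 Atm-/- lymphomas. Over the 114 V segments by name, of any biotype, the leader changed to Trav16d-dv11 at 144 in Atm-/- lymphoma 3, Trav13-1 at 908 in Rag2c/c p53-/- lymphoma 2, Trav16d-dv11 at 282 in lymphoma 4 and Trdv5 at 987 in lymphoma 5 of that group. Among these 114 the leading share was 3.97, 3.90 and 3.71% in WT thymus, with Trav14-1 leading all 3 libraries. It was 47.3, 23.8, 15.2, 35.8 and 25.9% in Atm-/- lymphomas and 9.53, 40.6, 20.1, 19.9 and 30.5% in Rag2c/c p53-/- lymphomas. On this wider list too the lymphomas lay above WT thymus without overlap.

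Some leading segments varied widely between mice of a group, while Trav17 stood at 66 or more in every Atm-/- lymphoma. Against WT thymus, Trav17 was below each library in Atm-/- lymphomas 1 to 3 and above each in lymphomas 4 and 5. Trav3-3, the leader of Rag2c/c p53-/- lymphoma 3, stood at 558, 7, 529, 18 and 120 in its group. Trav21-dv12 stood at 110, 114 and 89 in WT thymus, at 51, 0, 5, 2 and 8 in Atm-/- lymphomas and at 21, 98, 1, 0 and 16 in Rag2c/c p53-/- lymphomas. Trav19 stood at 55, 49 and 45 in WT thymus, and its 604 in Rag2c/c p53-/- lymphoma 1 was second in that tumor only to Trav7-4. Trav13-1 stood at 220, 185 and 177 in WT thymus, at 1, 5, 8, 8 and 2 in Atm-/- lymphomas and at 27, 908, 148, 6 and 11 in Rag2c/c p53-/- lymphomas. Trav21-dv12, Trav19 and Trav13-1 were thus near 0 in some tumors and within or above the WT range in others. By limma Trav19 fell in Atm-/- lymphomas against WT thymus (log2 fold change -4.99, adjusted p = 0.016), a call lost without WT thymus 1 (0.0534). Trav21-dv12 fell there too (log2 fold change -4.10, adjusted p = 0.0287), a call lost without Atm-/- lymphoma 2 or 4 or any 1 WT thymus. Trav13-1 also fell there (log2 fold change -5.30, limma adjusted p = 0.00385). Neither Trav19 nor Trav21-dv12 passed the limma test in Rag2c/c p53-/- lymphomas against WT thymus (adjusted p = 0.823 and 0.0647), although Trav21-dv12 was called there without Atm-/- lymphoma 1 or Rag2c/c p53-/- lymphoma 2.

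The 3′ ends of the leading V segments are shown because they form the start of the CDR3, the loop at the join, and show how distinct the leaders of different tumors are. Each is the last 60 bases of the reference transcript (GENCODE vM21, GRCm38, chromosome 14), 5′ to 3′, in lower case with the codon of the conserved cysteine at which the CDR3 begins in capitals. They are reference sequences, not reads from these tumors.
Trav1: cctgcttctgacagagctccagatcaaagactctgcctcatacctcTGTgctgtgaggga
Trav15-2-dv6-2: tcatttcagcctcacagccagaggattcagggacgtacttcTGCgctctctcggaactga
Trav17: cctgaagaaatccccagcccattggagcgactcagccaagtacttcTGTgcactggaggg
Trav7-4: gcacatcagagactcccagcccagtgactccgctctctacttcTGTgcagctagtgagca
Trav21-dv12: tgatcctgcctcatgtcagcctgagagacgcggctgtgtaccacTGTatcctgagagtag
Trav3-3: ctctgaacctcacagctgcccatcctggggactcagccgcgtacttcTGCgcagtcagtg
Trav19: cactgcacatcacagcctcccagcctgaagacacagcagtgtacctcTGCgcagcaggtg
Trav13-1: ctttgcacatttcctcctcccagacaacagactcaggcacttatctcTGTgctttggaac
Trav16d-dv11: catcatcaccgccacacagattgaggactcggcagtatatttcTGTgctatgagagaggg
Trdv5: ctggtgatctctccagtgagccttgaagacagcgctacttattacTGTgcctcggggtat
Trdv5, the segment that led Rag2c/c p53-/- lymphoma 5, lies on the minus strand, and the other 9 lie on the plus strand.

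Many V families of this locus occur in duplicated copies whose names carry the letter d or n. Reads were kept only where they mapped to a single place, and C57BL/6 and 129S6/SvEv mice may differ in these copies, so copy, strain and genotype cannot be told apart in any of the 3 comparisons. Of the 46 members, 30 have no copy letter (29 tested), and 15 carry the letter d (12 tested). Members without a letter called lower by limma numbered 23 in Atm-/- lymphomas against WT thymus, 9 in Rag2c/c p53-/- lymphomas against WT thymus and 7 in Atm-/- against Rag2c/c p53-/- lymphomas. Members with the letter d called lower numbered 11, 8 and 2 in the same order. All genes called lower with this filter were 17.0, 13.9 and 4.33%. The medians of the log2 fold change were -5.03, -2.49 and -2.41 without a letter and -5.01, -2.66 and -2.04 with the letter d, beside -0.02, -0.02 and 0.02 over all genes tested. The difference between the copy classes was not tested, and the counts depended on the filter: 3 of the 12 tested members with the letter d reached 10 in WT thymus alone, against 0 of the 29 without a letter. Members of both classes at 10 in fewer than 3 lymphomas also needed WT thymus to be tested. With the letter d these were all tested members but Trav14d-1. Without a letter they included Trav12-2, Trav12-3 and Trav8-1. Where 10 was required in 5 libraries, only 2 members with the letter d were tested, and 1, 0 and 1 were called lower in the same order. Of the 27 members without a letter that were then tested, 21, 8 and 7 were, against 2224, 1762 and 651 of all 14676 genes. The counts depended on single mice. Without WT thymus 1, 2 or 3 the second comparison gave 3, 4 and 4 members without a letter and 2, 3 and 2 with the letter d. It gave 14 members without a letter when Rag2c/c p53-/- lymphoma 1 was left out. In the first comparison the letter d count went from 11 to 7 without WT thymus 1 or 3. In the third, the count without a letter was 4 without any 1 WT thymus, Atm-/- lymphoma 3 or 5 or Rag2c/c p53-/- lymphoma 5, and 3 without Atm-/- lymphoma 1 or 4 or Rag2c/c p53-/- lymphoma 1. The letter d count there was 1 without Atm-/- lymphoma 1, 4 or 5 or Rag2c/c p53-/- lymphoma 1.

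How much of each V transcript can be assigned uniquely was measured in stretches of 90 bases compared with the other segments of the locus. Of the 114 V segments by name, 108 had a reference transcript, among them 45 of the 46 members. No unique stretch was found in 29, and 28 of these carry a copy letter. Of these 29, 16 were listed at 0 in all 13 libraries and 2 reached 10, the highest value being 154. The members in this class were Trav6d-6, Trav11d, Trav12d-1 and Trav14d-1. In contrast, 61 of the 62 segments that were unique over 50% or more of their length reached 10 somewhere. A 0 for a segment with no unique stretch is therefore no measure of its RNA. In all, 21 of the 114 V segments were listed at 0 in every library.

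Copies of the Trav16 family differ in sequence and were counted separately. Whether reads of 1 copy were counted for another was not tested. Trav16n stood at 198, 159 and 219 in WT thymus, at 0 in all 5 Atm-/- lymphomas and at 144, 24, 36, 25 and 46 in Rag2c/c p53-/- lymphomas. Its copy Trav16d-dv11 stood at 73, 88 and 112 in WT thymus, at 3, 2, 144, 0 and 1 in Atm-/- lymphomas and at 21, 7, 4, 282 and 84 in Rag2c/c p53-/- lymphomas. Trav16, with no letter, stood at 1, 0, 26, 0 and 1 in Atm-/- lymphomas and at 155, 3, 0, 107 and 12 in Rag2c/c p53-/- lymphomas. The copies peaked together in some tumors and apart in others: Trav16 and Trav16n were both highest in Rag2c/c p53-/- lymphoma 1, while Trav16d-dv11 was highest in lymphoma 4. In the Atm-/- group Trav16 and Trav16d-dv11 were both highest in lymphoma 3, at 26 and 144. Trav16n was called lower in Atm-/- than in Rag2c/c p53-/- lymphomas, with groups that did not overlap (limma adjusted p = 5.82e-06). Trav16d-dv11 fell in Atm-/- lymphomas against WT thymus (log2 fold change -4.15, limma adjusted p = 0.0372), a call lost without Atm-/- lymphoma 1, 2, 4 or 5 or any 1 WT thymus. Over the 290 bases compared, Trav16 and Trav16d-dv11 differ at 5 bases, Trav16 and Trav16n at 4, and Trav16d-dv11 and Trav16n at 3. A stretch of 222 bases that holds all 6 differing positions is shown for the 3 copies (GENCODE vM21, GRCm38, chromosome 14, plus strand, 5′ to 3′), in lower case with the differing positions in capitals, because in this stretch a read can be assigned to 1 copy only where it covers such a base.
Trav16: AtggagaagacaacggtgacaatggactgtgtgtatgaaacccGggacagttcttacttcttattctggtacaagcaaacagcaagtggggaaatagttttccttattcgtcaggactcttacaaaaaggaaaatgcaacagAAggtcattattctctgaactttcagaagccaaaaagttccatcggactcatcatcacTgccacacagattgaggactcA
Trav16d-dv11: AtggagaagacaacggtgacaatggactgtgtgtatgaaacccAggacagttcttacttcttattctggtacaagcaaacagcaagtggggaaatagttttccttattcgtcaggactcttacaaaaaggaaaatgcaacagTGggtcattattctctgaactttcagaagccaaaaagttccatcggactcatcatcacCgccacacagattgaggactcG
Trav16n: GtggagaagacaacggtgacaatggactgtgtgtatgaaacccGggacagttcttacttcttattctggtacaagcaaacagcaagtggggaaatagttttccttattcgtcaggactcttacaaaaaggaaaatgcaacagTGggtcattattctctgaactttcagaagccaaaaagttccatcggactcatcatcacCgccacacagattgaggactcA
By these stretches, 77.3% of Trav16, 58.0% of Trav16d-dv11 and 65.0% of Trav16n was unique.

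J alpha segments supply the end of the CDR3 and the start of the fourth framework. The 59 J alpha segments, all companions by biotype, summed to 1499, 1543 and 1812 in WT thymus, to 132, 1252, 1031, 61 and 511 in Atm-/- lymphomas and to 666, 1612, 481, 197 and 228 in Rag2c/c p53-/- lymphomas. Atm-/- lymphoma 4 had the lowest J alpha sum and Rag2c/c p53-/- lymphoma 2 was within the WT range. Segments at 10 or more numbered 41, 38 and 42 in WT thymus, 4, 16, 23, 1 and 14 in Atm-/- lymphomas, and 13, 25, 13, 4 and 3 in Rag2c/c p53-/- lymphomas. Of the 41 J alpha segments tested with limma, 25 fell in Atm-/- lymphomas and 23 in Rag2c/c p53-/- lymphomas, each against WT thymus. In either comparison 0 rose, against 12.6 and 9.77% of all genes called higher. At an unadjusted p under 0.05 the limma counts higher were 0 and 0, against 3985 and 3549 of all 15872 genes. Of the 41, 4 reached 10 in WT thymus alone and so entered the test only through it. That count leaves out segments at 10 in some but fewer than 3 lymphomas, which also needed WT thymus to be tested. Traj60 is an example, at 12 and 14 in Atm-/- lymphomas 3 and 5 and under 10 in the other lymphomas. Where 10 was required in 5 libraries, 24 J alpha segments were tested and 12 fell in each of these comparisons. Of all 14676 genes then tested, 2224 and 1762 fell. The median log2 fold changes were -3.06 and -2.81, against -0.02 over all genes in both. With a pseudocount of 0.5 they were -3.42 and -3.19, and with 5 they were -1.91 and -1.81. In 30 and 32 J alpha segments each lymphoma lay below each WT thymus, beside 17.0 and 13.9% of all genes called lower. Among the 41 tested this held for 63.4% in both comparisons, against 27.9 and 24.2% of all genes tested. The Atm-/- count was 16 without WT thymus 3, and the Rag2c/c p53-/- count was 7, 13 and 8 without WT thymus 1, 2 and 3. All genes called lower moved too, from 2695 to 1817 in the first case and from 2199 to 1347, 1592 and 1304 in the others.

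Where along the array the J alpha counts lay differed between libraries. These are read counts, in which RNA of joined and unjoined J alpha segments was not separated. The array was divided by rank of position into Traj61 to Traj41 (20 segments, chr14:54155005-54176325, nearest the delta genes), Traj40 to Traj21 (20 segments, chr14:54177921-54198846) and Traj20 to Traj1 (19 segments, chr14:54199441-54218840, nearest Trac). The window nearest the delta genes held 11.9, 15.7 and 11.3% of the J alpha counts in WT thymus. In Atm-/- lymphomas it held 44.7, 43.5, 51.2, 70.5 and 62.6%. Its share was 0, 0.62, 0.624, 16.8 and 6.58% in Rag2c/c p53-/- lymphomas. The Atm-/- lymphomas thus lay above every other library here. The window nearest Trac held 58.2, 53.9 and 58.7% in WT thymus, 20.5, 23.9, 18.5, 3.28 and 12.9% in Atm-/- lymphomas and 97.9, 57.2, 78.2, 59.4 and 89.9% in Rag2c/c p53-/- lymphomas. There the Atm-/- lymphomas lay below all other libraries, and the Rag2c/c p53-/- range began within the WT range. The middle window held 29.8, 30.4 and 30.0% in WT thymus, 34.8, 32.7, 30.3, 26.2 and 24.5% in Atm-/- lymphomas and 2.10, 42.2, 21.2, 23.9 and 3.51% in Rag2c/c p53-/- lymphomas. No J alpha segment of the window nearest the delta genes reached 10 in any Rag2c/c p53-/- lymphoma, against 7, 6 and 7 in WT thymus and 2, 8, 10, 1 and 9 in Atm-/- lymphomas. These shares were given no test, and in Atm-/- lymphomas 1 and 4 they rest on sums of 132 and 61.

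**Figure D2:**
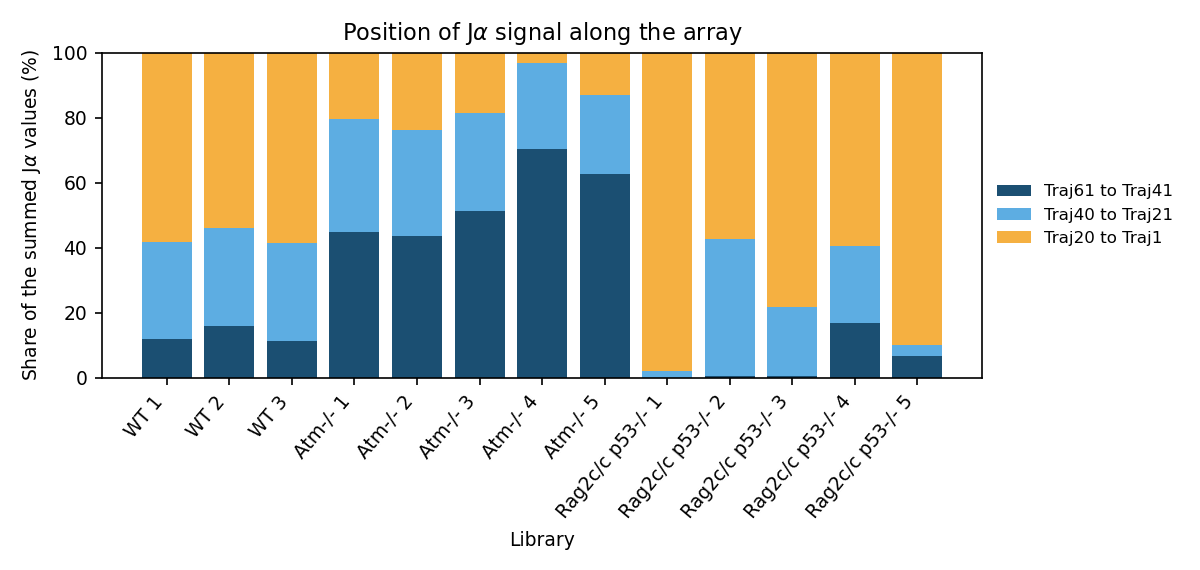
Share of J alpha counts (%) in 3 windows of the J alpha array, as stacked bars with 1 bar per library (WT thymus n = 3, each lymphoma group n = 5). The window nearest the delta genes held 43.5 to 70.5% in Atm-/- lymphomas, 11.3 to 15.7% in WT thymus and 0 to 16.8% in Rag2c/c p53-/- lymphomas.

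Between the lymphoma groups, 6 of the 41 tested J alpha segments were higher in Atm-/- lymphomas by limma, against 3.51% of all genes, and 4 were lower, against 4.33%, with a median log2 fold change of -0.17 against 0.02 over all genes. The higher ones, Traj61, Traj59, Traj58, Traj49, Traj48 and Traj42, lie in the window nearest the delta genes, and the lower ones, Traj16, Traj11, Traj2 and Traj1, lie in the window nearest Trac. The count lower was 2 without Atm-/- lymphoma 1 or Rag2c/c p53-/- lymphoma 1. The calls of Traj42 and Traj16 ended without any of 12 and 11 libraries, that of Traj11 without Atm-/- lymphoma 1 or Rag2c/c p53-/- lymphoma 1, and that of Traj48 without Rag2c/c p53-/- lymphoma 1 (0.0513). With a pseudocount of 0.5 or 5 the median was -0.19 or -0.11.

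Traj49, which led Atm-/- lymphomas 1 and 4, stood at 21, 42 and 31 in WT thymus, at 15, 222, 115, 11 and 54 in Atm-/- lymphomas and at 0, 3, 0, 6 and 2 in Rag2c/c p53-/- lymphomas. The lymphoma groups did not overlap, and Traj49 was higher in the Atm-/- group (log2 fold change 4.33, SE 0.812, limma adjusted p = 0.0043). Traj58, which led Atm-/- lymphoma 5, stood at 18, 36 and 20 in WT thymus, at 1, 119, 98, 8 and 86 in Atm-/- lymphomas and at 0, 0, 0, 6 and 0 in Rag2c/c p53-/- lymphomas. It was higher in the Atm-/- than in the Rag2c/c p53-/- group (log2 fold change 4.27, SE 1.05, limma adjusted p = 0.0192), while Atm-/- lymphoma 1 lay within the other group's range. Against WT thymus, Traj49 fell in Rag2c/c p53-/- lymphomas (log2 fold change -3.68, limma adjusted p = 0.00804). Traj58 fell there as well (log2 fold change -4.06, limma adjusted p = 0.0185), a call lost without any 1 WT thymus (0.0511 to 0.0719). Neither passed the limma test in Atm-/- lymphomas against WT thymus (adjusted p = 0.596 and 0.899).

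At the other end of the array, Traj1 led 4 of the 5 Rag2c/c p53-/- lymphomas. Traj1 stood at 69, 104 and 77 in WT thymus, at 2, 18, 20, 0 and 2 in Atm-/- lymphomas and at 136, 68, 78, 51 and 78 in Rag2c/c p53-/- lymphomas. It was lower in Atm-/- than in Rag2c/c p53-/- lymphomas without overlap (log2 fold change -3.94, SE 0.723, limma adjusted p = 0.00375). The Rag2c/c p53-/- values of Traj1 lay around those of WT thymus (log2 fold change -0.07, SE 0.835, limma adjusted p = 0.952), with fold changes of -0.27 to 0.10 when 1 library was left out. Traj2, which led WT thymus 1, stood at 91, 62 and 113 in WT thymus, at 1, 9, 11, 0 and 4 in Atm-/- lymphomas and at 121, 10, 57, 16 and 53 in Rag2c/c p53-/- lymphomas. It fell in Atm-/- lymphomas against WT thymus (log2 fold change -4.40, SE 0.888, limma adjusted p = 0.00153). Traj16, which led WT thymus 2 and 3, stood at 85, 140 and 126 in WT thymus, at 0, 0, 3, 0 and 0 in Atm-/- lymphomas and at 14, 304, 24, 13 and 0 in Rag2c/c p53-/- lymphomas. It fell in Atm-/- lymphomas against WT thymus (log2 fold change -6.45, SE 1.26, limma adjusted p = 0.00128), and its 304 in Rag2c/c p53-/- lymphoma 2 stood far above the other tumors. Traj16 was called in Rag2c/c p53-/- lymphomas against WT thymus only without that library (log2 fold change -3.76, limma adjusted p = 0.00894).

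Traj27, from the middle window, led Atm-/- lymphomas 2 and 3 and Rag2c/c p53-/- lymphoma 2. It stood at 69, 97 and 102 in WT thymus, at 13, 281, 135, 8 and 54 in Atm-/- lymphomas and at 0, 432, 33, 21 and 3 in Rag2c/c p53-/- lymphomas. Its groups overlapped in each comparison, and by limma it was not called in any of the 3 (adjusted p = 0.672, 0.245 and 0.528). Without Rag2c/c p53-/- lymphoma 2 it was called in that group against WT thymus (0.047). The sequences of the leading J alpha segments are shown because a J alpha segment encodes the end of the CDR3 and the leaders came from different windows of the array. They are reference sequences (GENCODE vM21, GRCm38, chromosome 14, plus strand, 5′ to 3′), in lower case with the 4 codons of the conserved Phe-Gly motif in capitals, and Traj1 is annotated without that motif.
Traj58: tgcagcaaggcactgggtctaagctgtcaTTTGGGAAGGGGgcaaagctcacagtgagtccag
Traj49: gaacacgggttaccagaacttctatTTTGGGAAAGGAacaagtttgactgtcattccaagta
Traj27: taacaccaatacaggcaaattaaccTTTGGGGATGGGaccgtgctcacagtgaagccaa
Traj16: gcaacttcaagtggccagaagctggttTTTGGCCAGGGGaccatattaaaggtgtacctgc
Traj2: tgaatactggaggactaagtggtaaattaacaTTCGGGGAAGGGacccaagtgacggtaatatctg
Traj1: gtgtgcagatagctgctccatctttcctg
The segments are listed from the delta side to the Trac side.

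Delta chain segments could be followed through Trdv1, Trdv2-1, Trdv2-2, Trdv5, Trdj1 and Trdj2, since Trdv4, Trdd1 and Trdd2 stayed under 10 in every library. Trdv2-2, the V segment nearest the D delta genes on their V side among those detected, stood at 121, 75 and 81 in WT thymus, at 3, 27, 42, 51 and 17 in Atm-/- lymphomas and at 0, 0, 0, 3 and 53 in Rag2c/c p53-/- lymphomas. Trdj1, a J delta segment, stood at 258, 182 and 232 in WT thymus, at 318, 37, 20, 177 and 0 in Atm-/- lymphomas and at 1, 0, 0, 3 and 75 in Rag2c/c p53-/- lymphomas. Trdj2, the other J delta segment, stood at 30, 13 and 31 in WT thymus, at 46, 658, 19, 86 and 0 in Atm-/- lymphomas and at 0, 0, 0, 0 and 17 in Rag2c/c p53-/- lymphomas. In the Rag2c/c p53-/- group these segments were near 0 in 4 lymphomas and present in lymphoma 5, while in the Atm-/- group 4 lymphomas held J delta counts and lymphoma 5 held 0. Against WT thymus, Trdv2-2 fell in Rag2c/c p53-/- lymphomas (log2 fold change -4.96, SE 1.20, limma adjusted p = 0.00602). Trdj1 fell there as well (log2 fold change -5.95, SE 1.68, limma adjusted p = 0.0139), a call lost without WT thymus 1 (0.0511). Trdj2 missed the threshold there (log2 fold change -3.75, SE 1.59, limma adjusted p = 0.0781) and was called without Atm-/- lymphoma 2 (0.0398), Atm-/- lymphoma 5 (0.0233) or Rag2c/c p53-/- lymphoma 5 (0.0362).

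In Atm-/- lymphomas against WT thymus, none of Trdv2-2, Trdj1 and Trdj2 passed the limma test (adjusted p = 0.169, 0.2 and 0.798), although Trdv2-2 was called without Rag2c/c p53-/- lymphoma 5 (0.0491). The fold change of Trdj1 there was -2.71, and -1.44 without Atm-/- lymphoma 5. Between the lymphoma groups the 3 segments were on the higher side in Atm-/- lymphomas without being called: log2 fold changes were 2.87, 3.24 and 4.30 (limma adjusted p = 0.0927, 0.175 and 0.0585). Leaving out 1 library ended that for each: Trdv2-2 was called without Rag2c/c p53-/- lymphoma 5 (3.92, adjusted p = 0.00575), Trdj1 without Atm-/- lymphoma 5 (4.51, adjusted p = 0.0326), and Trdj2 without Atm-/- lymphoma 5 (5.59, adjusted p = 0.00683) or Rag2c/c p53-/- lymphoma 5 (5.14, adjusted p = 0.032). Trdv1 stood at 42, 2, 0, 0 and 1 in Atm-/- lymphomas, where lymphoma 1 held nearly all of its counts, and fell against WT thymus (log2 fold change -4.82, limma adjusted p = 0.00509). Trdv2-1 was low throughout, at 4, 6 and 4 in WT thymus, 1, 7, 3, 11 and 4 in Atm-/- lymphomas and 0, 0, 0, 0 and 18 in Rag2c/c p53-/- lymphomas, and was not tested.

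Trdv5 lies in reverse orientation on the Trac side of the D and J delta genes, so it joins by inversion. It stood at 153, 120 and 135 in WT thymus, at 1, 0, 34, 13 and 0 in Atm-/- lymphomas and at 0, 0, 0, 9 and 987 in Rag2c/c p53-/- lymphomas. A single tumor, Rag2c/c p53-/- lymphoma 5, thus held Trdv5 at several times the WT level while 8 other lymphomas stood at 13 or below. Trdv5 fell in Atm-/- lymphomas against WT thymus (log2 fold change -5.10, SE 1.98, limma adjusted p = 0.0496), a call lost without any of Atm-/- lymphomas 1, 2, 4 and 5, Rag2c/c p53-/- lymphomas 3 and 4 and WT thymuses 1, 2 and 3 (0.0502 to 0.122). In Rag2c/c p53-/- lymphomas against WT thymus it was not called (limma adjusted p = 0.0922), and it was called without lymphoma 5 (log2 fold change -6.26, adjusted p = 0.00281). The reference sequences of the J delta segments (GENCODE vM21, GRCm38, chromosome 14, plus strand, 5′ to 3′) are shown because they distinguish a delta from an alpha join, in lower case with the conserved Phe-Gly motif in capitals.
Trdj1: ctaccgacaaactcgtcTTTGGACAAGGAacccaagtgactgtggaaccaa
Trdj2: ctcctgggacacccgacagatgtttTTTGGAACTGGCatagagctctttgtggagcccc
Summed over D delta, J delta and Trdv5, the counts were 0 to 1080 in Rag2c/c p53-/- lymphomas, 0 to 695 in Atm-/- lymphomas and 318 to 446 in WT thymus.

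Read along the chromosome, the last V and the first J alpha segment at 10 or more differed between some tumors. In Atm-/- lymphomas 2, 3 and 5 both were those of WT thymus. The last V segment at 10 or more before the D delta genes was Trdv2-2 in all 3 WT thymuses, in Atm-/- lymphomas 2 to 5 and in Rag2c/c p53-/- lymphoma 5. It was Trdv1 in Atm-/- lymphoma 1, Trav21-dv12 in Rag2c/c p53-/- lymphomas 1 and 2, Trav6-7-dv9 in lymphoma 3 and Trav19 in lymphoma 4. From the delta side, the first J alpha segment at 10 or more was Traj61 in WT thymus and in Atm-/- lymphomas 2, 3 and 5, and Traj49 in Atm-/- lymphomas 1 and 4. It was Traj18, Traj34, Traj27, Traj27 and Traj3 in Rag2c/c p53-/- lymphomas 1 to 5. The distance between these segments was 193.4 kb in WT thymus and 286.5, 193.4, 193.4, 207.1 and 193.4 kb in Atm-/- lymphomas. It was 324.0, 307.9, 481.9, 346.5 and 255.7 kb in Rag2c/c p53-/- lymphomas. The interval was thus longer in Rag2c/c p53-/- lymphomas 1 to 4 than in any Atm-/- lymphoma or WT thymus, and lymphoma 5 lay within the Atm-/- range. Within it the highest value was 258, 182 and 232 in WT thymus and 318, 658, 34, 177 and 0 in Atm-/- lymphomas. It was 7, 7, 7 and 9 in Rag2c/c p53-/- lymphomas 1 to 4 and 987, from Trdv5, in lymphoma 5. By the definition of its ends, only D delta, J delta and Trdv5 values could reach 10 inside the interval. Segments at 10 or more in all 3 WT thymuses numbered 112, and since WT thymus chose them they could be near 0 only in lymphomas. Of these, 89, 64, 51, 78 and 68 stood at 3 or below in Atm-/- lymphomas and 35, 56, 47, 52 and 54 in Rag2c/c p53-/- lymphomas, which is 31.2 to 79.5%. Among the 13670 genes of the whole table chosen in the same way, 3.03 to 6.14% stood at 3 or below in a lymphoma. RNA alone does not show whether DNA was deleted, and that was not tested.

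**Figure D3:**
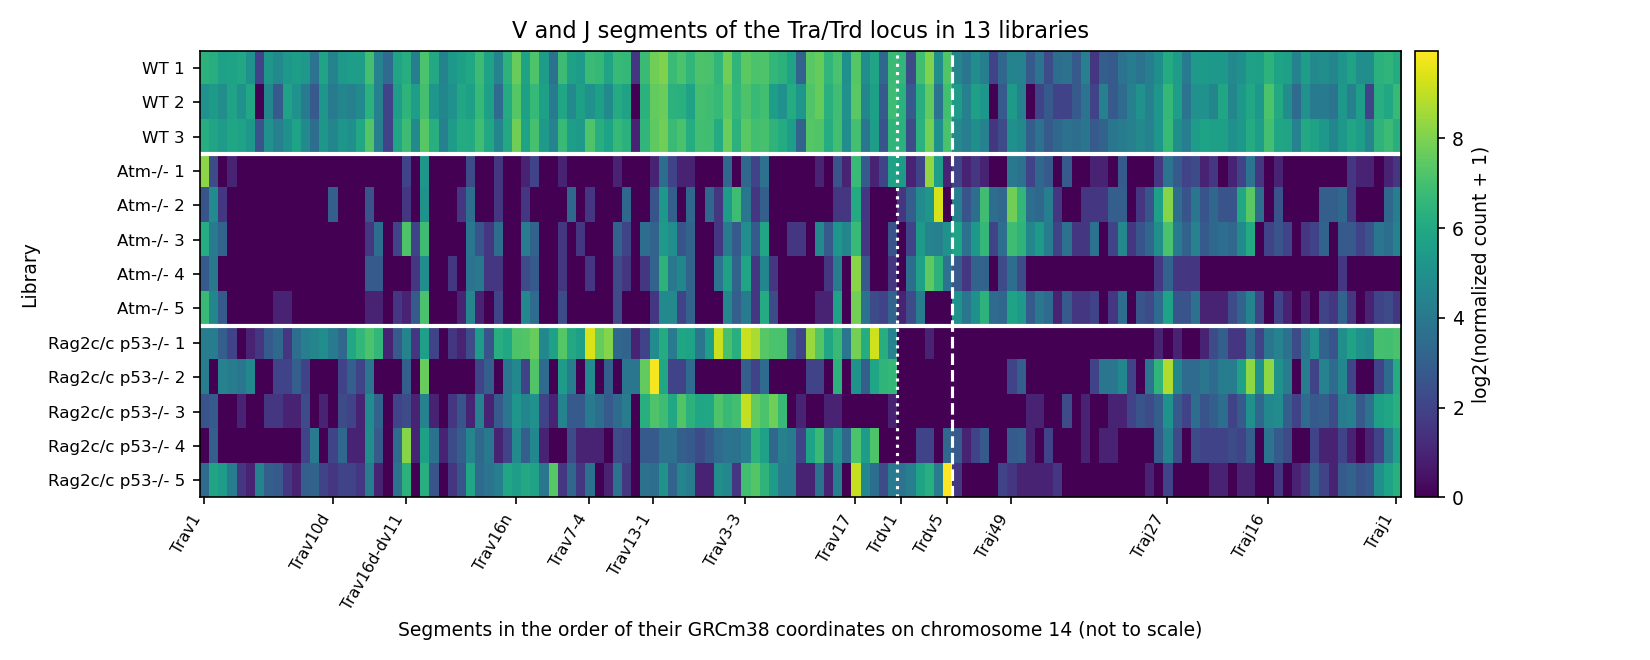
Heat map of log2(value + 1) for 131 V and J segments that reached 10 in any library, in order of GRCm38 position (horizontal, not to scale) in 13 libraries (vertical), with a dotted line before Trdv1 and a dashed line before the J alpha array. Of 112 segments chosen for standing at 10 or more in all 3 WT thymuses, Trac included, 51 to 89 were at 3 or below in Atm-/- lymphomas and 35 to 56 in Rag2c/c p53-/- ones.

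Trac encodes the constant region of the alpha chain (ENSMUSG00000076928, chr14:54220521-54223097) and is a companion by biotype. It stood at 4310, 8017 and 4344 in WT thymus, at 1294, 2567, 5614, 483 and 2124 in Atm-/- lymphomas and at 8042, 8507, 4393, 2753 and 3119 in Rag2c/c p53-/- lymphomas. The groups overlapped in each comparison, and Atm-/- lymphoma 4 was the lowest. The log2 fold change was -1.56 (SE 0.621, limma adjusted p = 0.0557) in Atm-/- lymphomas and -0.14 (SE 0.621, limma adjusted p = 0.873) in Rag2c/c p53-/- lymphomas against WT thymus. Between Atm-/- and Rag2c/c p53-/- lymphomas it was -1.41 (SE 0.538, limma adjusted p = 0.109). None of the 3 was called. Without Atm-/- lymphoma 3 Trac was called lower in that group, against WT thymus (-1.97, adjusted p = 0.0131) and against Rag2c/c p53-/- lymphomas (-1.82, adjusted p = 0.0295). The difference between Rag2c/c p53-/- lymphomas and WT thymus turned positive, at 0.15, without WT thymus 2 and, more weakly, without Rag2c/c p53-/- lymphoma 4 (0.06) or 5 (0.01). Over the 13 libraries, the tested genes most like Trac were Grap (Pearson r = 0.960), Dnm2 (0.914) and Gabrd (0.891). The 13 libraries fall into 3 groups, and this is a description with no test.

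Partners of the chains, the recombinase, locus regulators and stage markers formed a list of 40 genes, all tested. By limma 11 fell, against 17.0% of all genes, and 0 rose, against 12.6%, in Atm-/- lymphomas compared with WT thymus. At an unadjusted p under 0.05 by limma 3 were higher, against 3985 of all 15872 genes. The median log2 fold change was -0.48 beside -0.02 over all genes. Against WT thymus 6 fell in Rag2c/c p53-/- lymphomas, near the 13.9% of all genes, and 0 rose, against 9.77%, with a median of -0.53 beside -0.02. At an unadjusted p under 0.05 by limma 2 were higher there, against 3549 of all 15872 genes. Between Atm-/- and Rag2c/c p53-/- lymphomas 1 was higher and 2 were lower, near the 3.51 and 4.33% of all genes, with a median of -0.01 beside 0.02. The counts called lower in the last 2 comparisons are thus no result about the list. Rag1, a subunit of the recombinase, stood at 48182, 70834 and 51074 in WT thymus, at 6304, 5755, 5496, 7116 and 2383 in Atm-/- lymphomas and at 11239, 5620, 23493, 8465 and 18170 in Rag2c/c p53-/- lymphomas. It fell in both lymphoma groups against WT thymus (log2 fold changes -3.46 and -2.24, limma adjusted p = 5.17e-05 and 0.00147). Rag2, its partner, stood at 4199, 5409 and 4502 in WT thymus, at 279, 1025, 265, 521 and 46 in Atm-/- lymphomas and at 790, 260, 537, 410 and 695 in Rag2c/c p53-/- lymphomas. It fell in both as well (-4.04 and -3.22, limma adjusted p = 0.000624 and 0.0036). Whether the altered Rag2 of the Rag2c/c p53-/- group affects its read count was not tested. For both genes each lymphoma lay below each WT thymus. Their part in the V and J results was not tested.

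Other called genes of this list included stage markers. The activation marker Cd69 fell in both lymphoma groups against WT thymus, Atm-/- first (log2 fold changes -4.26 and -4.42, limma adjusted p = 0.000221 and 0.000258). Cd5, a surface protein that follows receptor signal, fell in both (-2.39 and -2.602), and the Atm-/- call was lost without any 1 WT thymus (0.0501 to 0.0554). The co-receptor of activation Cd28 fell in both (-2.13 and -2.11). In Atm-/- lymphomas Dntt, which adds bases at the join, fell (-1.07), as did Bcl11b, a T lineage factor (-1.20). The CD8 chains Cd8a (-1.49) and Cd8b1 (-1.66) fell there as well. The Dntt change was under 1 without Atm-/- lymphoma 1 (-0.88) or 5 (-0.97) or WT thymus 2 (-0.91). The count of 11 was 7 without WT thymus 2. Kit, a marker of early progenitors, fell in Atm-/- lymphomas against WT thymus (-3.27), a call lost without any of 10 libraries (0.0542 to 0.121). Against Rag2c/c p53-/- lymphomas, Kit and Cd8b1 were lower in the Atm-/- group (log2 fold changes -3.65 and -1.21), and these calls ended without any of 10 and 9 libraries. Tcrg-C2, a gamma constant gene, fell in Rag2c/c p53-/- lymphomas against WT thymus (-3.54), a call lost without any 1 WT thymus (0.0607 to 0.0812). It was higher in Atm-/- than in Rag2c/c p53-/- lymphomas (3.25), and this call ended without any of 9 libraries (0.0597 to 0.111). With 1 library left out, the counts between the lymphoma groups ranged from 0 to 3 in each direction.

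Marker lists of other cells moved with the groups, and their part in the V, D, J and C results was not tested. Counts called against WT thymus in these lists stand beside 17.0% of all genes called lower and 12.6% called higher in Atm-/- lymphomas, and 13.9 and 9.77% in Rag2c/c p53-/- lymphomas. The most abundant gene of a list is given by group mean, and single libraries differed. The gamma delta T list (5 of its 6 genes, Trdc not analysed here) summed to 1889, 1911 and 1868 in WT thymus, 3983, 5225, 1646, 5913 and 3486 in Atm-/- lymphomas and 2517, 4630, 3512, 1901 and 2440 in Rag2c/c p53-/- lymphomas. By limma 1 of 5 was higher in Atm-/- lymphomas (Il17rd) and 1 in Rag2c/c p53-/- lymphomas (Maf), each against WT thymus. By group mean its most abundant gene was Tcrg-C1 in WT thymus and Atm-/- lymphomas and Maf in Rag2c/c p53-/- lymphomas. The alpha beta T list had 1 of 6 called, Cd8a, lower in Atm-/- lymphomas. The NK and innate-like list summed to 1218, 1067 and 1180, then 435, 91, 65, 49 and 140, then 443, 65, 717, 296 and 62. In each lymphoma group 5 of its 6 genes fell against WT thymus. Nkg7 led it by group mean in WT thymus and Zbtb16 in both lymphoma groups, and Ncr1 was at 5 or below in each lymphoma. The B cell list summed to 1770, 1446 and 1677, then 213, 272, 239, 103 and 197, then 283, 506, 143, 92 and 168. Of its 6 genes, 5 fell in Atm-/- lymphomas and 6 in Rag2c/c p53-/- ones against WT thymus, and by group mean Cd79b or Cd79a led it. Medians of the log2 fold change against WT thymus, first in Atm-/- and then in Rag2c/c p53-/- lymphomas, beside -0.02 over all genes in both, were 0.635 and 0.71 for the gamma delta list, -0.38 and -0.69 for the alpha beta list, -3.82 and -3.29 for the NK list and -2.69 and -3.19 for the B cell list.

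The myeloid list (5 of its 6 genes, Adgre1 not analysed here) summed to 4402, 3659 and 4689 in WT thymus, 9058, 5513, 7851, 9378 and 8702 in Atm-/- lymphomas and 5098, 3074, 5301, 6744 and 6329 in Rag2c/c p53-/- lymphomas. Of these 5 genes 3 rose in Atm-/- lymphomas and 1 in Rag2c/c p53-/- ones by limma, and Lyz2 led the list by group mean. The fibroblast and endothelial list summed to 3846, 3775 and 3709, then 10910, 7802, 11378, 20727 and 14970, then 4751, 5809, 6512, 2944 and 5579. Of its 6 genes 4 rose in Atm-/- lymphomas, while 3 rose and 1 fell in Rag2c/c p53-/- lymphomas, and Pecam1 led it by group mean. In the Atm-/- group both sums lay above each WT thymus, and the myeloid sums of the lymphoma groups overlapped. The thymic epithelial list summed to 1067, 757 and 1091, then 213, 180, 338, 451 and 361, then 269, 1310, 864, 495 and 1007. Of its 6 genes 3 fell in Atm-/- lymphomas and 4 in Rag2c/c p53-/- ones, by group mean Ccl25 led it in WT thymus and Atm-/- lymphomas and Epcam in Rag2c/c p53-/- lymphomas, and Foxn1 was at 7 or below in each lymphoma. The erythroid list summed to 942, 2128 and 1457, then 1560, 2468, 6245, 1936 and 889, then 816, 4752, 1585, 1045 and 1459. Of its 5 tested genes 2 rose in each lymphoma group, and Hbb-bs led it by group mean. The list of dividing cells summed to 34836, 40938 and 38137, then 57515, 31126, 51022, 58705 and 64247, then 50665, 36304, 46586, 47764 and 50240. Of its 6 genes 1 rose in each lymphoma group, a share near that of all genes, and by group mean Mki67 led it in WT thymus and Top2a in both lymphoma groups. Between the lymphoma groups, limma called 1 gamma delta, 1 NK and 1 fibroblast gene higher in Atm-/- lymphomas and 2 NK genes lower. Of all genes 3.51% were higher there and 4.33% lower. Medians against WT thymus in the same order of groups were 1.205 and 0.55 for the myeloid list, 3.83 and 2.13 for the fibroblast and endothelial list, -3.002 and -2.76 for the thymic epithelial list, 0.55 and 0.01 for the erythroid list and 0.64 and 0.63 for the dividing list.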

How the data were processed

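Poly(A) RNA of single-cell suspensions of thymus or thymic lymphoma was sequenced from stranded libraries. The authors aligned reads with STAR 2.4.0g1 to GRCm38, kept uniquely mapped reads without duplicates, counted them per gene and normalized with DESeq2 1.6.3. The deposited score of each gene in each library is this normalized count, rounded. How reads spliced across V, J and C segments were counted was not given. The table also holds the authors' fold changes and p-values for comparisons, which were not used, and 0 other per-sample columns were left out. Genes at 10 or more in at least 3 of 13 libraries were fitted together with limma 3.58.1 (R 4.3.3) on log2(value + 1), with trend and robust moderation, and Benjamini-Hochberg adjustment ran over all 15872 genes. Calls needed an adjusted p under 0.05, a log2 fold change of 1 or more in size and an average of 10 or more in either group. Other steps used Python 3.11.15, numpy 2.4.6, pandas 2.3.3 and matplotlib 3.10.9. Genes were named by rule: Trac, delta segments reaching 10, the leading V and J alpha segment of each library, in each comparison the 5 highest and 5 lowest called members without overlap, list genes, and the 3 genes most like Trac. Other segments, among them those called between lymphoma groups with overlap, were named after their values were seen. Members and lists were chosen with earlier results of these data known. Alternatives were another scaling, pseudocount, filter, moderation or set of groups, and leaving out each library.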

Additional observations from a re-analysis of the deposited data

Results flagged for a closer look

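Within groups of 5 lymphomas, a library was singled out where its gap to the nearest other value exceeded 0.71 of the group's range (Dixon). This held in 25 of 63 groups of values tested, where chance gives about 1 in 20, and groups with all values under 10 were not tested. Many of these genes were named because they led a library, so that rate is no test of this count. In Atm-/- lymphomas the far values were Trav21-dv12 at 51 and Trdv1 at 42 in lymphoma 1, Trav15-2-dv6-2 at 114 and Trdj2 at 658 in lymphoma 2, and Trav16 at 26 and Trav16d-dv11 at 144 in lymphoma 3. In Rag2c/c p53-/- lymphoma 1 they were Trav7-4 at 666, Trav19 at 604, Trav8-1 at 195, Trav14d-1 at 138, Trav12d-1 at 60, Trav13-4-dv7 at 58 and the summed V count of 5609. In Rag2c/c p53-/- lymphoma 2 they were Trav13-1 at 908, Traj27 at 432, Traj16 at 304 and Trav21-dv12 at 98. Trav12-2 at 58 stood apart in lymphoma 3 and Trav16d-dv11 at 282 in lymphoma 4 of that group. In Rag2c/c p53-/- lymphoma 5 the far values were Trdv5 at 987, Trdj1 at 75, Trdv2-2 at 53, Trdv2-1 at 18, Trdj2 at 17 and Trdv1 at 13.

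Segments and pathway genes named in the text whose levels differed between Atm-/- and Rag2c/c p53-/- lymphomas by limma, with the log2 fold change, were Trav14d-1 (-3.39), Trav7-3 (-3.06), Trav7-4 (-3.96), Trav9-4 (-4.47), Trav5-4 (-3.96), Trav19 (-4.51), Traj16 (-3.72), Traj11 (-2.57), Traj2 (-3.17), Traj1 (-3.94), Cd8b1 (-1.21) and Kit (-3.65), lower in Atm-/- lymphomas. Traj61 (3.10), Traj59 (3.33), Traj58 (4.27), Traj49 (4.33), Traj48 (3.49), Traj42 (2.81) and Tcrg-C2 (3.25) were higher. Trav12d-1, Trav7-2 and Trav6-7-dv9 were listed at 0 in all 5 Atm-/- lymphomas, and their fitted values of -2.79, -3.002 and -4.45 depend on the pseudocount. Trav16n, also called lower, was listed at 0 in all 5 as well. Trav14d-1 and Trav12d-1 have no unique stretch of sequence, so their differences cannot be assigned to them alone.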

How the results depend on the processing

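Each alternative changed 1 choice, except that trend and robust moderation were dropped together. Where a count or value moved, the cause was not tested. Requiring 10 in at least 5 libraries left 23 members lower in Atm-/- lymphomas and 9 in Rag2c/c p53-/- lymphomas against WT thymus, with 1 and 0 of those with the letter d (1 between lymphoma groups), and 12 J alpha segments in each comparison with WT thymus. With only the 2 groups compared, 4 members were lower between lymphoma groups, 3 without a letter and 1 with the letter d, and 0 pathway genes were called in either direction. Without trend and robust moderation there were 4 without a letter, and 0 pathway genes in either direction. Between the lymphoma groups, with a pseudocount of 5, 1 member with the letter d and 2 J alpha segments were lower, and Trav14-2 turned to -0.15. Without the filter 1 pathway gene was lower and 0 higher, and 4 were lower with recomputed size factors, with size factors without receptor and immunoglobulin segments, or with equal column totals. With no fold threshold, pathway genes called were 15 lower and 3 higher in Atm-/- lymphomas and 11 lower and 1 higher in Rag2c/c p53-/- lymphomas. Between the lymphoma groups 4 were lower and 1 higher. In the same order all genes called were 3723 and 3304, 3123 and 2761, and 1004 and 807. Counting segments of any biotype by name, chosen after seeing the data, gave 117 tested segments. Of these, 86, 61 and 17 were called lower, with the comparisons in the same order, against 17.0, 13.9 and 4.33% of all genes tested. Called higher were 0, 0 and 6, against 12.6, 9.77 and 3.51% of all genes. On V segments by name the leading share averaged 3.86, 29.6 and 24.1% in WT, Atm-/- and Rag2c/c p53-/- samples, so the lymphoma groups lay closer together than on the members. In the same order the inverse Simpson number was 52.7, 8.38 and 12.1, and the number at 10 or more 74.0, 13.4 and 35.4. Summing copies gave an inverse Simpson number of 27.0 in WT thymus. At a minimum of 5 the mean number of V segments was 44.0 in WT thymus and 10.6 in Atm-/- lymphomas, and of J alpha segments 47.0 and 21.0. At 20 they were 38.7 and 29.3 in WT thymus.

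Without 1 library, members lower numbered 24 to 38 in Atm-/- lymphomas and 6 to 25 in Rag2c/c p53-/- lymphomas against WT thymus, and 4 to 13 between lymphomas. In the same order the ranges with the letter d were 7 to 12, 2 to 10 and 1 to 3. Without a letter they were 3 to 14 in Rag2c/c p53-/- lymphomas and 3 to 10 between lymphomas. J alpha segments lower were 16 to 26, 7 to 30 and 2 to 6. Pathway genes were 7 to 11 lower in Atm-/- lymphomas, and 0 to 3 lower and 0 to 3 higher between lymphomas. Trac ranged from -1.97 to -1.08 in Atm-/- lymphomas, -0.35 to 0.15 in Rag2c/c p53-/- lymphomas and -1.82 to -0.94 between them. Log2 fold changes that changed sign in Atm-/- lymphomas against WT thymus were those of Trav1 (-1.31 to 0.092), Trav17 (-0.43 to 0.10), Trdj2 (-0.51 to 1.83) and Traj58 (-0.31 to 1.17). In Rag2c/c p53-/- lymphomas they were those of Trav3-3 (-1.52 to 0.006), Trav17 (-2.21 to 0.064), Trav19 (-1.50 to 0.82) and Traj1 (-0.27 to 0.10). Between lymphomas they were those of Trav14-2 (-0.91 to 0.85), Trav15-2-dv6-2 (-1.46 to 0.27), Trav17 (-0.22 to 2.05), Trav21-dv12 (-1.44 to 0.22), Trdv1 (-0.12 to 1.602) and Trdv5 (-1.45 to 1.16). Of the other values of named genes, 2333 kept their direction and their side of the threshold, 197 lost a call and 38 gained it. The alternatives for J alpha segments and for fold changes of single pathway genes were added after seeing the data. The ratio of Trac to Trdc was not run.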
